A study of Mus musculus with 21 samples.

Results

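Guanylate-binding proteins (GBPs) and immunity-related GTPases (IRGs) were followed as a family of 10 named genes, Gbp2, Gbp3, Gbp4, Gbp5, Gbp6, Gbp7, Igtp, Irgm1, Irgm2 and Iigp1, out of 24455 gene symbols measured in 21 single-cell libraries. All 10 were found in the count table by symbol, and all 10 passed the filter on low counts in each comparison given here. The members were listed by name, with earlier results of these data known. The table held 14 further Gbp and Irg genes, which are given as a group beside the members.

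GBPs and IRGs are GTPases that interferons switch on in most cell types, through their receptors, the JAK kinases and transcription factors such as IRF1. They act inside the cell, where they gather on the vacuoles of parasites and bacteria, break or coat those membranes, and expose their contents to the caspases and sensors of the inflammasome. In the IRG branch, Irgm1, Irgm2 and Igtp (also called Irgm3) are regulators that sit on the cell's own membranes and hold the effectors inactive there, and Iigp1 (also called Irga6) is an effector that loads onto the vacuole. Fibroblasts and macrophages are both known to use the pathway, and dendritic cells express it with the interferon state of the tissue.

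By its title and design, the study screened transcription factors that turn mouse embryonic fibroblasts (MEFs) into dendritic cell (DC) types. Lentivirus carried 6 factor sets into MEFs grown on gelatin: PI8 (Pu.1, Irf8), PIB (PI8 with the factor the labels spell Baft3), PI4 (Pu.1, Irf4), PIP (PI4 with Prdm1), SI8 (Spib, Irf8) and SII (SI8 with Ikzf2). Pu.1 is the product of Spi1. All 6 sets were put into Clec9aCre/Cre Rosa26stopflox-tdTomato/tdTomato MEFs, of which live tdTomato+ cells were sorted, and SI8 and SII also into hCD2Cre/WT Rosa26stopflow-YFP/WT MEFs, of which live YFP+ cells were sorted. Each combination of set and line is called an arm, and the 8 arms were each taken at day 3 and at day 9, which gives 16 transduced libraries, each of 1 arm and day. The sort keeps cells in which the Cre driver has been on, so cells that took up the factors without switching it on are not represented. The controls were 2 libraries of wildtype MEFs sorted only as live cells, and 1 library each of wildtype splenic cDC1 (CD11c+MHC-II+CD8α+), cDC2 (CD11c+MHC-II+CD11b+) and pDC (CD11c+SiglecH+B220+BST2+). The labels used here give no age for the animals.

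The libraries held 411 to 4169 cells and 2291128 to 89394715 unique molecular identifiers (UMIs), each UMI standing for a captured 3' end of a transcript. Levels are given as CPM, a gene's UMIs scaled to the same total in every library. Shares and levels carry 95% intervals (exact Clopper-Pearson and exact Poisson) that cover counting error only. No source said which libraries came from separate animals or cultures, so the p-values reflect library-to-library spread, part of which may be technical. Any pair of libraries shared at most 4 cell barcodes. Of the defining markers of the controls, Col1a1 stood at 5437 and 5409 CPM in MEF, Xcr1 at 423.7 in cDC1 and Siglech at 3050 in pDC, each above every other kind of library. Cd209a stood at 342.1 in cDC2 but also at 290.5 in pDC and at 425.9 in PIP at day 9. The library labelled PI8 day 9 stood apart. The Y-linked genes Ddx3y and Eif2s3y had 0 UMIs there, against 17.4 and 25.3 CPM in PI8 at day 3 and 15.6 CPM or more in the other Clec9a line libraries, and its summed fibroblast markers were at 17.6 CPM, where the other transduced libraries held 533.6 or more. Mpo, Elane and Nkg7 were at 393.1, 66.5 and 140.1 CPM there, each its highest level in the 21 libraries. Xist was at 1119 CPM, against 136.0 CPM in PI8 at day 3. Counts of members called by edgeR are given with and without this library. Ranges, counts of groups without overlap, calls by DESeq2 and correlations include it. Ddx3y and Eif2s3y were also at 0 UMIs in the 3 splenic libraries and the 4 libraries of the hCD2 line, apart from 0.014 CPM of Eif2s3y in SII at day 3.

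Promoter sequences are shown first because they carry the interferon elements that these genes are known for. RefSeq promoters (build GRCm38.p6, 250 bases before to 50 after the start) matched 7 of the 10 members; Gbp4, Gbp6 and Iigp1 had no entry. The stretches below run 5' to 3' on the gene's own strand, with capitals marking the motifs found. They are Igtp at chr11:58199496-58199546 (plus strand), Irgm2 at chr11:58214887-58214937 (plus strand), Irgm1 at chr11:48871420-48871465 (minus strand), Gbp2 at chr3:142620589-142620628 (plus strand) and Gbp7 at chr3:142530215-142530307 (plus strand).
Igtp: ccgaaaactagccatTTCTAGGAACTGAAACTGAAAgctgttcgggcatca
Irgm2: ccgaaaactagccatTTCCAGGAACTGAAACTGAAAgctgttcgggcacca
Irgm1: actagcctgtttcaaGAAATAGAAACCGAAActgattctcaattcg
Gbp2: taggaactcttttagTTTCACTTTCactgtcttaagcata
Gbp7: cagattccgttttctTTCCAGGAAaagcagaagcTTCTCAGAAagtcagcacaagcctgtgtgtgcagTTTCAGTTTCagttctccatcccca

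The core of the interferon-stimulated response element (GAAA, any 2 bases, GAAA; all motifs were read on both strands) was found in 7 of 7 matched members and, over promoters of the same length, in 3.99% of 27025 genes. The gamma activated site, an element of the response to interferon gamma (TTCNNNGAA), was found in 4 of 7, namely Gbp5, Gbp7, Igtp and Irgm2, and in 9.55% of the 27025 genes. A composite element of ETS and IRF factors (GGAA, any 2 bases, GAAA), the kind of site that Pu.1 or Spib shares with Irf4 or Irf8, was found in 3 of 7, namely Gbp5, Igtp and Irgm2, and in 3.16% of the genes. In Igtp and Irgm2 the 3 motifs overlap within the run of capitals, and the 51 bases shown were identical at 49 positions. Composite elements of AP1 and IRF factors (TGANTCA followed directly by GAAA, and TTTC, any 4 bases, TGANTCA) had no match in these windows, against 0.152% and 0.133% of the genes. A match describes the letters and is not evidence of binding. By RefSeq position on GRCm38.p6, Gbp5, Gbp7, Gbp3 and Gbp2 lie in 1 cluster on chromosome 3 (142496934 to 142638008), Gbp4 and Gbp6 in another on chromosome 5 (105115767 to 105295871), and Irgm1, Igtp and Irgm2 on chromosome 11, with Igtp and Irgm2 next to each other.

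The family was most abundant in untransduced MEFs and in PI4, and least abundant in splenic cDC1. The summed level of the 10 members was 1196 and 1180 CPM in the 2 MEF libraries, 1159 and 1089 CPM in PI4 at days 9 and 3, and 414.5 to 755.7 CPM in the other transduced libraries outside SII and PI8 day 9. SII held 159.3 to 272.9 CPM, the library labelled PI8 day 9 held 189.0 CPM, and cDC2, pDC and cDC1 held 169.0, 154.7 and 71.2 CPM. Libraries of 1 arm and day have no replicate, so the order of neighbours such as MEF and PI4 at day 9 is not firm. A lower level in a library can mean fewer cells with the transcript or less of it per cell, which cannot be told apart from summed UMIs. The heat map of all members and libraries shows the same layout gene by gene.

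**Figure D1:**
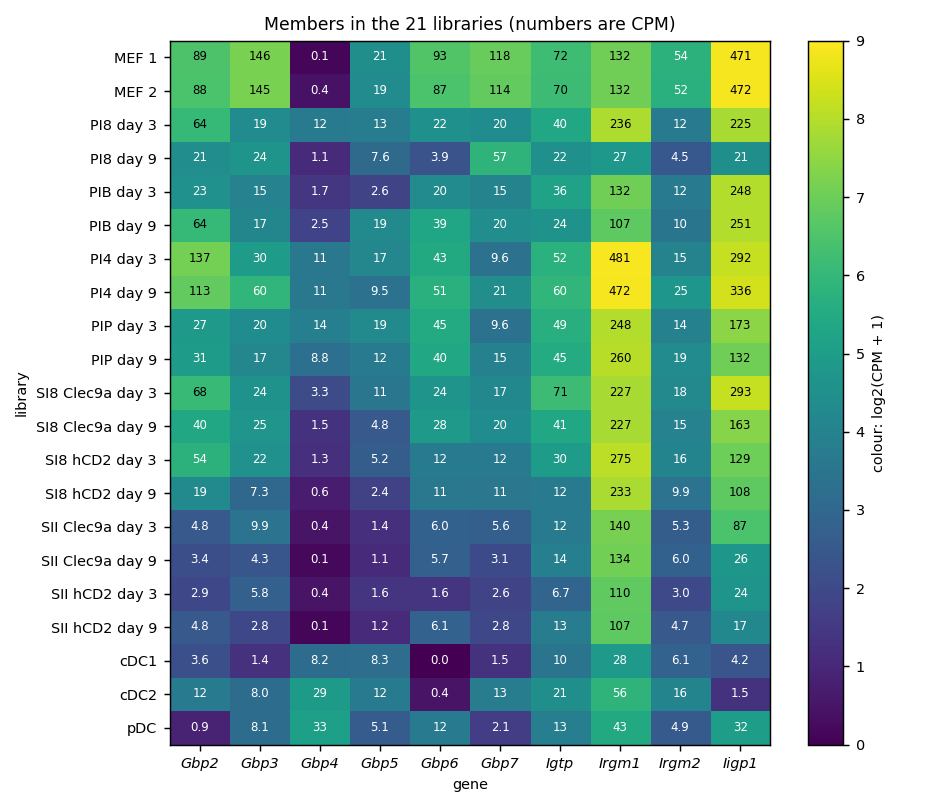
Heat map of the level of each member (across) in each of the 21 libraries (down); the printed number is CPM and the colour is log2(CPM + 1). Iigp1 and Irgm1 were the brightest columns in most transduced libraries, the SII libraries were lower than SI8 in nearly all columns while Irgm1 stayed above 100 CPM, and Gbp4 was at its highest in cDC2 and pDC.

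What the sum was made of differed between kinds of library. Iigp1, the vacuole-loading effector, made up 39.3% and 40.1% of the members' UMIs in the MEF libraries, and Irgm1, the regulator on the cell's own membranes, 11% and 11.2%. In SI8 the share of Irgm1 was 30.0% and 40.3% in the Clec9a line at days 3 and 9, and 49.4% and 56.2% in the hCD2 line. In SII it was 51.5% to 69.3%. Gbp4 took 11.5%, 17.2% and 21.3% in cDC1, cDC2 and pDC, and at most 2.23% in any transduced library. These shares compare the same genes between libraries; capture of 3' ends may differ between genes.

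**Figure D2:**
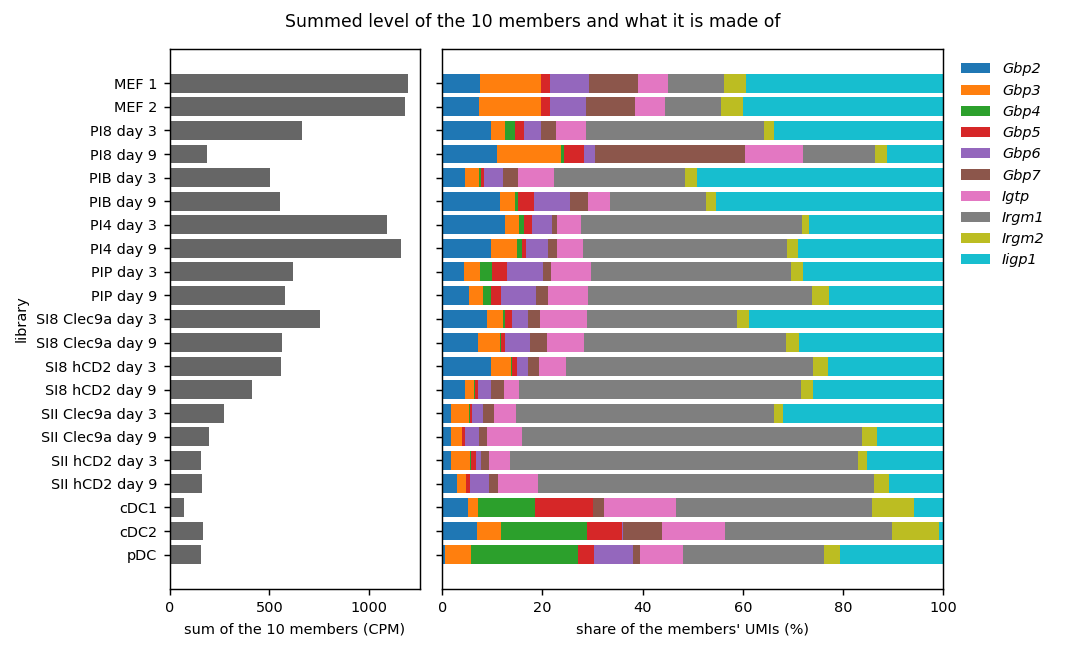
Left, bars of the summed CPM of the 10 members in each library; right, the share of each member in that sum (%). The sum runs from 71.2 CPM in cDC1 to 1196 CPM in MEF. The band of Irgm1 is widest in SII of the hCD2 line at day 3 (69.3%). In SI8 of the hCD2 line at day 9 (56.2%) it is wider than in SII of the Clec9a line at day 3 (51.5%).

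Adding Ikzf2 to Spib and Irf8 was the comparison in which the family moved as a whole. Ikzf2 encodes HELIOS, a zinc finger factor of the Ikaros family. All 10 members were lower in SII than in SI8 by edgeR's quasi-likelihood test with day and line as covariates (adjusted p under 0.05 over all genes tested). The background was high: 37.6% of 15423 tested genes were called in this comparison, 18.8% as lower. The median log2 fold change of the members was -2.28, against 0.04 over all genes tested. In 8 of 10 members each of the 4 SII libraries lay below each of the 4 SI8 libraries, as did 7.53% of all 20830 genes with a count in these libraries. Taking library totals without TMM scaling moved the median over all genes to 0.34 and the split of called genes from 2897 higher and 2901 lower to 4965 higher and 2009 lower; all 10 members stayed lower (median -1.98). The delivered factor followed the labels, with Ikzf2 at 91.1, 26.9, 104.9 and 26.8 CPM in SII against 5.71, 3.74, 4.8 and 3.01 CPM in SI8. Other factors differed too. Spib was at 22.8, 27.8, 32.2 and 24.8 CPM in SII against 6.52, 9.91, 28.8 and 17.4 CPM in SI8. Irf8 was at 79.4, 25.5, 94.5 and 22.1 CPM against 21.8, 18.7, 38.4 and 49.0 CPM. Prdm1, which is in neither set, was at 28.4, 5.04, 15.8 and 9.73 CPM against 2.18, 1.55, 0.873 and 0.430 CPM. Their part in the result was not tested. Values of SI8 and SII are given throughout in the order Clec9a line day 3, Clec9a line day 9, hCD2 line day 3, hCD2 line day 9, and n = 4 libraries a group.

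The 3 regulators had the 3 smallest fold changes, although differences between members were not tested. Irgm1 stood at 227.1, 227.1, 275.0 and 232.8 CPM in SI8 and at 140.4, 133.9, 110.3 and 107.0 CPM in SII. The groups did not overlap, with means of 240.5 ± 23.1 and 122.9 ± 16.7 CPM (SD), and the log2 fold change was -1.27 ± 0.16 (SE, adjusted p = 0.00127). Irgm2, which restrains the inflammasome response to bacterial lipopolysaccharide, stood at 17.9, 14.9, 15.7 and 9.89 CPM in SI8 and at 5.26, 6.0, 2.96 and 4.74 CPM in SII. Every SII library was below every SI8 library, and the log2 fold change was -1.91 ± 0.23 (adjusted p = 0.00112). Igtp, which guards lipid droplets and the endoplasmic reticulum, stood at 70.6, 40.5, 30.1 and 12.2 CPM in SI8 and at 12.1, 13.7, 6.71 and 12.6 CPM in SII. Its groups overlapped, because SI8 in the hCD2 line at day 9 was as low as SII, and it was lower in 3 of 4 pairs of the same line and day (-1.88 ± 0.38, adjusted p = 0.00745).

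The effector Iigp1 was lower in 4 of 4 pairs. It stood at 293.0, 162.5, 128.8 and 108.1 CPM in SI8 and at 87.2, 26.1, 24.3 and 17.5 CPM in SII. The groups did not overlap, SII in the Clec9a line at day 3 was the highest of its group, and the log2 fold change was -2.63 ± 0.28 (adjusted p = 0.000645).

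Of the GBPs on chromosome 3, Gbp2, which coats the vacuole of Toxoplasma, showed the steepest fall of the 10 members. It stood at 67.9, 40.1, 54.1 and 18.9 CPM in SI8 and at 4.77, 3.43, 2.88 and 4.78 CPM in SII. The SII libraries lay close together and far below SI8, and the log2 fold change was -3.69 ± 0.35 (adjusted p = 0.000383). Gbp7, a GBP linked to the phagocyte oxidase and to autophagy, stood at 17.4, 19.7, 12.2 and 11 CPM in SI8 and at 5.59, 3.05, 2.59 and 2.84 CPM in SII. It did not overlap between the groups (-2.39 ± 0.23, adjusted p = 0.00040). Gbp5, which promotes inflammasome assembly, stood at 10.5, 4.78, 5.24 and 2.36 CPM in SI8 and at 1.38, 1.10, 1.60 and 1.17 CPM in SII. It was low in both groups, without overlap (-2.32 ± 0.33, adjusted p = 0.00208). Gbp3, whose deletion together with its neighbours weakens control of Toxoplasma in mice, stood at 23.7, 24.6, 22.3 and 7.31 CPM in SI8 and at 9.86, 4.25, 5.83 and 2.82 CPM in SII. Its groups overlapped through the SI8 library of the hCD2 line at day 9, although SII was lower in 4 of 4 pairs (-2.11 ± 0.25, adjusted p = 0.00104).

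Of the members on chromosome 5, Gbp6 was at higher levels than Gbp4 in every library of both groups. Gbp6 stood at 24.3, 27.6, 12.2 and 11.2 CPM in SI8 and at 5.95, 5.69, 1.63 and 6.06 CPM in SII. The groups did not overlap (-2.24 ± 0.34, adjusted p = 0.00268). Gbp6 has a near-identical copy, Gbp10, so its reads may have been split or dropped in counting. Gbp4 stood at 3.29, 1.5, 1.31 and 0.645 CPM in SI8 and at 0.403, 0.137, 0.386 and 0.0821 CPM in SII. It was near the limit of counting in SII but did not overlap (-3.11 ± 0.43, adjusted p = 0.00179).

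**Figure D3:**
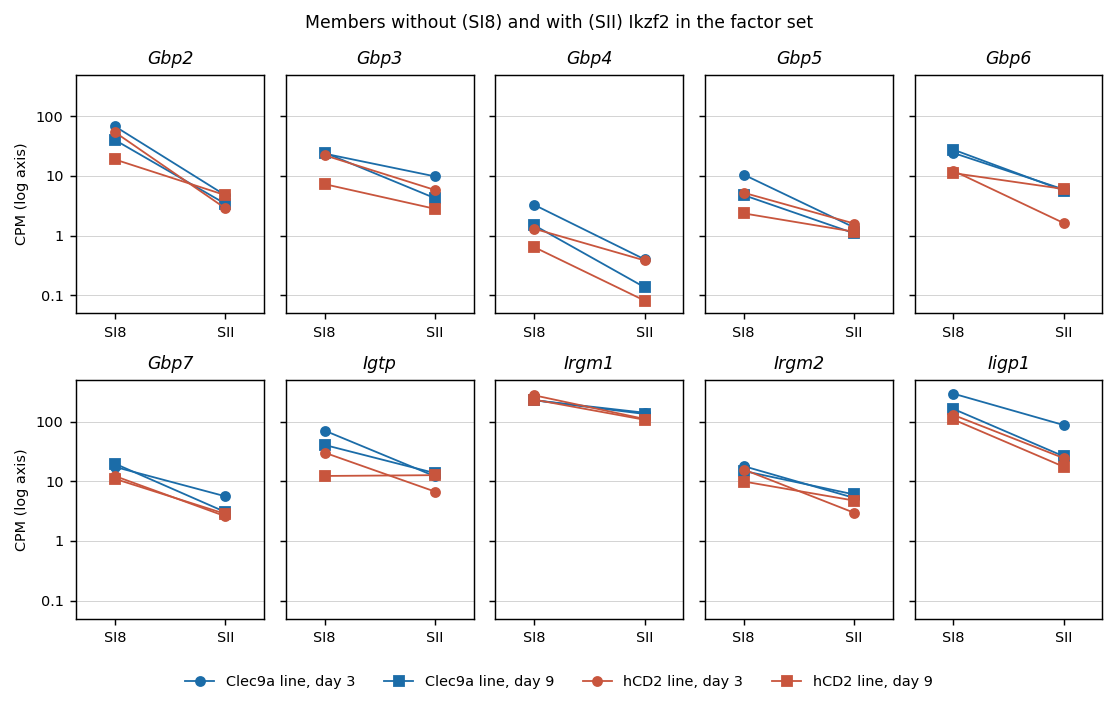
A panel for each member with CPM (log axis) in SI8 and SII; lines join libraries of the same reporter line and day. All lines descend from SI8 to SII except the one of Igtp in the hCD2 line at day 9, which runs level at 12.2 and 12.6 CPM.

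The calls depended little on any 1 library: 10 of 10 members were called without each of the 8 libraries in turn. In the Clec9a line alone, where 1667 of 14798 genes were called, 9 members were called, Irgm1 being lost (-0.98, adjusted p = 0.0723), and in the hCD2 line alone, with 1270 of 14027 genes called, 6 were called, Gbp4, Gbp5, Gbp6 and Igtp being lost (adjusted p = 0.0544 to 0.228). With cells of 10000 UMIs or more only, which leaves out both SI8 libraries of the hCD2 line, 9 members and 1611 of 15599 genes were called and Gbp6 was lost (adjusted p = 0.0586). The difference of the Ikzf2 effect between the lines was tested by an interaction term, which called 0 members and 0% of 15423 genes (1 member, Irgm1, at an unadjusted p under 0.05; DESeq2 called 0). The corresponding test between days called 0 members and 1.05% of genes (3 members, Igtp, Gbp2 and Irgm2, at an unadjusted p under 0.05). DESeq2 called 1, Igtp, with an adjusted p = 0.0331. Of the Gbp, Irg and interferon lists, the edgeR test between days called Gbp2b (-11.0 on the log2 scale, adjusted p = 0.0459) and Ifnb1 (-4.12, adjusted p = 0.0165). For Igtp the effect was weaker at day 9 by 1.56 ± 0.44 on the log2 scale (edgeR adjusted p = 0.125), and without the SII library of the Clec9a line at day 9 this test called Igtp, Gbp2 and Gbp6 (adjusted p = 0.00141, 0.00537 and 0.0443) and 879 of 16642 genes. Between the reporter lines themselves 0 members were called, against 0.0195% of genes (5 members at an unadjusted p under 0.05; DESeq2 called 0). The reporter line and the absence of Y-linked transcripts cannot be told apart in that comparison. Counts of members at an unadjusted p under 0.05 and calls by DESeq2, here and below, are given without the share of all genes.

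Other genes of the family and of the interferon pathway were read from lists chosen with earlier results of these data known. Of 12 tested further Gbp and Irg genes, 8 were lower in SII and 0 higher (median log2 fold change -1.33). Gm4951, a neighbour of Iigp1 and an IRG itself, stood at 66.7, 46.9, 27.1 and 15.7 CPM in SI8 and at 0.0895, 0.0343, 0.0414 and 0.181 CPM in SII (adjusted p = 7.7e-05). Tgtp1, an IRG effector, stood at 7.02, 2.07, 3.06 and 4.08 CPM in SI8 and at 0.0414 CPM or less in SII (adjusted p = 0.000198), and Tgtp2, with which it is nearly identical, also fell (adjusted p = 0.000899). Gm5431 was the other of the 4 genes with the steepest fall (adjusted p = 0.00124). All 3 tested members of other interferon-induced GTPase families fell, led by Rnf213 (-1.62 ± 0.24, adjusted p = 0.0023). All 15 type I interferon targets fell (median -4.30), Oasl2 furthest (-7.50), as did 9 of 11 tested interferon gamma targets outside the family (median -2.51), Cxcl9 furthest (-8.39), and 7 of 9 caspase and inflammasome partners (median -3.14), among them Casp4, the caspase that senses lipopolysaccharide (-3.59 ± 0.46, adjusted p = 0.0013). Of 12 ubiquitin and autophagy partners, which help target GBPs and IRGs to vacuoles, 2 fell slightly, Map1lc3b by 0.50 and Atg3 by 0.47 on the log2 scale.

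The receptors and transducers that lead to these genes did not follow them. Of 17 tested interferon receptor and signalling genes, 5 were higher and 2 lower in SII, with a median log2 fold change of 0.14. Ifngr1, a chain of the interferon gamma receptor, stood at 47.9, 45.5, 34.0 and 47.5 CPM in SI8 and at 142.1, 109.9, 76.9 and 82.8 CPM in SII. Each SII library was above each SI8 library (0.90 ± 0.21, adjusted p = 0.0119). The kinase Jak1 was higher in the same way (1.39 ± 0.23, adjusted p = 0.00357). The inhibitors Socs1 (1.65 ± 0.38, adjusted p = 0.0120) and Ptpn6 (2.65 ± 0.28, adjusted p = 0.000592) were higher as well, while Usp18, an inhibitor that is itself an interferon target, was lower (-2.26 ± 0.21, adjusted p = 0.000388). Irf1, Stat2 and Irf9 were not called (log2 fold changes -0.12, -0.10 and -0.07; adjusted p = 0.621, 0.6249 and 0.716). Ifngr1, Irf1, Stat2 and Irf9, and Irf2, the other gene that fell (-0.80 ± 0.16, adjusted p = 0.00668), are outside the naming rule and were chosen after their values were seen.

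**Figure D4:**
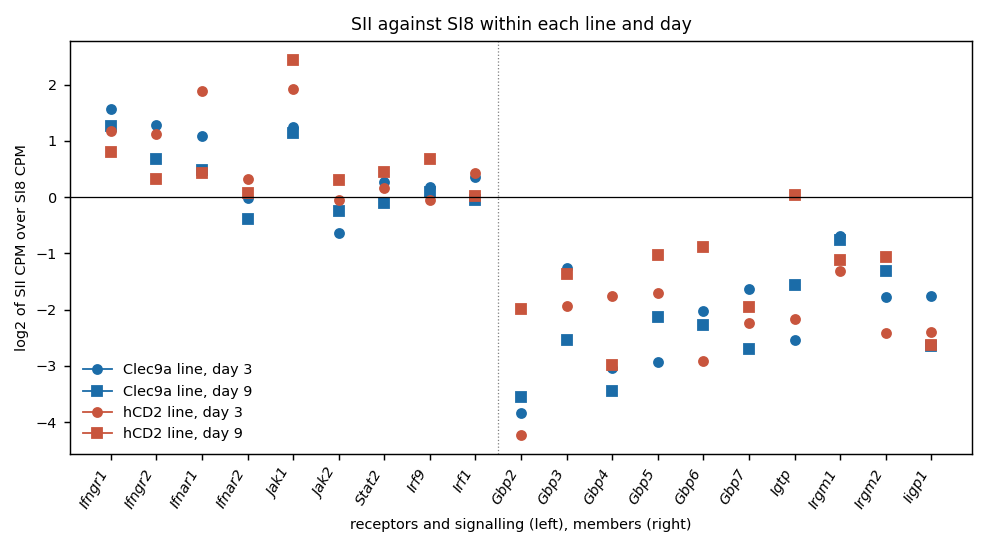
Log2 of SII CPM over SI8 CPM for each line and day (plain CPM, without TMM scaling), for interferon receptors and transducers (left of the dotted line) and for the members (right). The points of Ifngr1 and Jak1 lie above 0 and those of Irf1, Stat2 and Irf9 nearer to 0, while the members lie below 0 except 1 point of Igtp.

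Of the ligands, Ifnb1, the fibroblast interferon, stood at 30.6, 16.1, 13.1 and 5.16 CPM in SI8 and at 8.58, 0.240, 2.62 and 0.0657 CPM in SII (-3.85 ± 0.75, adjusted p = 0.0066). It was highest in PI4 at day 9 (73.5 CPM) and PIP (71.6 and 55.4 CPM at days 3 and 9), at 0.278 CPM or less in MEF, and at 0 UMIs in all 3 splenic libraries. Ifng, the classic inducer of the family, did not exceed 0.0686 CPM in any library.

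Cell makeup and RNA quality also moved with Ikzf2. Of 11 macrophage markers 9 fell, and their summed level was 1346 to 9524 CPM in SI8 and 107.3 to 230.0 CPM in SII. Lyz2 made up most of it in SI8 (1123 to 9026 CPM, against 0.0414 to 156.2 CPM in SII), and the defining marker C1qa was at 0 in all 4 SII libraries and at 1.5 CPM or less in SI8. The cells of each SI8 library were ranked by their share of macrophage UMIs and split into a lower and an upper group. The summed members were at 804.8, 631.0, 547.0 and 427.2 CPM in the lower group and at 707.7, 466.0, 570.4 and 400.2 CPM in the upper group. The level of macrophage markers left in the lower group is not given here. All 8 values were above those of SII cells split in the same way (155.8 to 283.8 CPM). Of 10 fibroblast markers 4 fell, Dcn furthest (-4.36 ± 0.75, adjusted p = 0.0042), and 1 rose. Of 6 pan-haematopoietic markers 4 rose and 2 fell, Ptprc (5.56 ± 1.10, adjusted p = 0.0070) and Coro1a (2.64 ± 0.17, adjusted p = 9.8e-05) being among those that rose and Spi1 (-4.52 ± 1.07, adjusted p = 0.0135) and Cd52 (-4.32 ± 0.42, adjusted p = 0.00044) being those that fell. Of the 2 tested of 6 neutrophil markers S100a8 fell (-8.37 ± 1.37, adjusted p = 0.0034) and Ly6g rose (5.45 ± 0.76, adjusted p = 0.0018), and the summed level of the 6 was 258.0 to 2438 CPM in SI8 and 1.351 to 25.5 CPM in SII. Gm42418, AY036118 and Lars2, whose share rises with ribosomal RNA carry-over, made up 0.29%, 3.66%, 8.32% and 10.8% of UMIs in SI8 and 0.15% to 0.59% in SII, and the SI8 libraries of the hCD2 line had the lowest median depths, 2765 and 2786 UMIs per cell. The part of makeup, quality and depth in the result was not tested beyond these values.

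Transduced cells were set against untransduced MEFs to ask what all factor sets shared. Gbp3, Gbp7 and Irgm2 were lower at both days by edgeR's test, which called no member as higher. At day 9, 10.6% of 16538 genes were called, 5.54% as lower, and 3 of 10 members; at day 3, 17.1% were called, 8.38% as lower, and the same 3 members. The members' median log2 fold change was -1.60 at day 9 and -1.09 at day 3, against 0.19 and 0.14 over all genes. Both days share the MEF libraries, so they do not count as separate evidence. MEF had 2 libraries, which differed from each other by little (chi-square 2.35 per degree of freedom over 15245 genes) and were counted as separate, and the arms, which hold different factors, stood in for replicates of transduced cells.

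Gbp3 was at 146.2 and 145.4 CPM in MEF and at 2.82 to 60.003 CPM at day 9 (median 16.7) over 8 libraries. All 8 lay below both MEF libraries, PI4 being the highest, with a log2 fold change of -2.85 ± 0.71 at day 9 (adjusted p = 0.0160) and -2.82 ± 0.71 at day 3 (adjusted p = 0.0122). Gbp7 was at 118.4 and 113.6 CPM in MEF and at 2.84 to 56.8 CPM at day 9 (median 17.1). All 8 lay below MEF, the highest being the library labelled PI8 day 9 (-2.67 ± 0.70, adjusted p = 0.0218; at day 3 -3.15 ± 0.70, adjusted p = 0.00573). Irgm2 was at 53.7 and 51.9 CPM in MEF and at 4.52 to 25.4 CPM at day 9 (median 10.1). It too lay below MEF in 8 of 8 libraries (-2.07 ± 0.62, adjusted p = 0.0405; at day 3 -1.95 ± 0.62, adjusted p = 0.0392). Without the library labelled PI8 day 9 the same 3 members were called at day 9 (adjusted p = 0.0130, 0.00432 and 0.0288).

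Without either MEF library all 3 calls were lost at both days (adjusted p = 0.128 and 0.130 for Gbp3, 0.167 and 0.156 for Gbp7 and 0.249 and 0.238 for Irgm2 at day 9; 0.0562 to 0.222 at day 3). Irgm2 was also lost in cells of 10000 UMIs or more (adjusted p = 0.0589 at day 9 and 0.0593 at day 3), and all 3 were lost at day 9 when day 9 and MEF libraries were fitted alone (adjusted p = 0.0589 to 0.0685). Irgm2 alone was also lost at day 9 without PI8 day 3, or without the day 9 library of PIB, of SI8 in either line or of SII in either line (adjusted p = 0.0510 to 0.0598), and at day 3 without PI8 day 3 or PIB day 3 (adjusted p = 0.0582 and 0.0514). DESeq2 also called Gbp4, as higher (adjusted p = 0.0388 at day 9 and 0.00702 at day 3).

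At day 9, 7 members lay below both MEF libraries in all 8 transduced libraries, as did 13.1% of genes; they were the 3 called and Gbp5, Gbp6, Igtp and Iigp1. At day 3 this held for 6 members and 21% of genes, the same ones without Igtp. Iigp1 was at 470.5 and 472.4 CPM in MEF and at 17.5 to 336.4 CPM at day 9 (-1.75 ± 0.87, adjusted p = 0.203). Irgm1 lay on both sides of MEF, at 131.8 CPM in both MEF libraries and at 26.8 to 471.7 CPM at day 9 (0.67 ± 0.77, adjusted p = 0.595). Gbp4 was near absent from MEF, at 0.126 and 0.354 CPM. It was above both MEF libraries in 8 of 8 libraries at day 3 (0.386 to 13.8 CPM), without an edgeR call (4.70 ± 2.09, adjusted p = 0.129). The share of all genes for which this held is not given here. The lowest of the 8, SII of the hCD2 line (interval 0.257 to 0.558 CPM), overlapped the second MEF library (0.206 to 0.567 CPM). At day 9 Gbp4 was above both MEF libraries in 6 of 8 libraries and below both in 1. Over the same comparisons 0 of 15 type I interferon targets and 0 of 14 further Gbp and Irg genes were called by edgeR at either day, and 6 of 10 fibroblast markers fell at day 9. Ptpn6 was called as higher at days 9 and 3 (6.17 and 6.05, adjusted p = 0.0461 and 0.0361), as was Il1b (16.6 and 16.7, adjusted p = 0.0488 and 0.0355). At day 3 the interferon gamma targets Ciita (8.08, adjusted p = 0.0363) and Psmb8 (1.61, adjusted p = 0.0434) were called as higher. Of the ubiquitin and autophagy partners, Atg7 was called as higher at both days. At day 9 Gabarapl1 was also called as higher (1.34, adjusted p = 0.0068) and Trim21 as lower (-1.20, adjusted p = 0.0424). At day 3 Gabarapl2, Atg12 and Map1lc3b were also called as higher (1.71, 1.19 and 1.02, adjusted p = 0.0136, 0.0163 and 0.0354).

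Between day 9 and day 3, with the arm as a block, edgeR called 0 members and 0.0808% of 16090 genes. Gbp4 and Iigp1 had an unadjusted p under 0.05 (log2 fold changes -1.20 and -0.93, adjusted p = 0.225 and 0.290), and DESeq2 called 0. Each member's day 3 and day 9 ranges overlapped. Irgm1 was nearly level between the days in 5 of 8 arms: it was 481.0 and 471.7 CPM in PI4, 247.8 and 260.3 CPM in PIP, 227.1 at both days in SI8 of the Clec9a line, and 140.4 and 133.9 CPM in SII of the Clec9a line and 110.3 and 107.0 CPM in SII of the hCD2 line.

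Irf4 and Irf8 are close relatives that pair with Pu.1 on the same sites. The arms with Pu.1 and Irf4 (PI4, PIP) were set against those with Pu.1 and Irf8 (PI8, PIB), with 4 libraries a side. By edgeR 0 members and 0.00697% of 14339 genes were called. An unadjusted p under 0.05 was found for 5 members, a count without the share of all genes beside it. The members' median log2 fold change was 0.96 against -0.03 over all genes. In 4 members, Gbp6, Igtp, Irgm1 and Irgm2, every Irf4 library was above every Irf8 library, as in 1.54% of 21147 genes. Irgm1 was at 481.0, 471.7, 247.8 and 260.3 CPM in PI4 days 3 and 9 and PIP days 3 and 9, and at 236.2, 26.8, 132.1 and 106.7 CPM in PI8 days 3 and 9 and PIB days 3 and 9. PI4 stood highest, and PIP at day 3 was close to PI8 at day 3 (1.84 ± 0.61, adjusted p = 0.646). Igtp was at 52.2, 59.6, 49.2 and 45.4 CPM with Irf4 and at 40.0, 22.0, 35.7 and 23.8 CPM with Irf8. Its groups did not overlap (0.97 ± 0.24, edgeR adjusted p = 0.620; DESeq2 adjusted p = 0.0208, its 1 call among the members). Gbp7 ran the other way, at 9.60, 21.1, 9.60 and 14.5 CPM with Irf4 and at 19.6, 56.8, 15.3 and 20.1 CPM with Irf8 (-0.81 ± 0.31, adjusted p = 0.661). Without the library labelled PI8 day 9, Irgm1 differed by 1.39 ± 0.39 (adjusted p = 0.249) and Gbp7 by -0.48 ± 0.23 (adjusted p = 0.386). Ifnb1 was also higher in the Irf4 arms, at 23.4 to 73.5 CPM against 0 to 20.3 CPM, and Usp18, an interferon target, at 205.3 to 466.4 against 5.49 to 269.9 CPM; their part in the difference was not tested.

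Prdm1 encodes the repressor BLIMP1. In PIP, which adds it to PI4, Gbp2, Gbp3, Igtp, Irgm1, Irgm2 and Iigp1 had lower values than in PI4 at both days. Gbp7 was level at day 3 (9.60 CPM in both) and lower in PIP at day 9, and Gbp5 was higher in PIP at both days. The share of all genes lower at both days is not given here. By edgeR and by DESeq2 0 members were called, with 0.137% of genes called by edgeR. In 5 members, Gbp2, Gbp3, Igtp, Irgm1 and Iigp1, both PIP libraries were below both PI4 libraries, as were 25% of 19938 genes. Gbp2 was at 137.2 and 112.9 CPM in PI4 and at 27.3 and 30.5 CPM in PIP at days 3 and 9. Both PIP libraries lay below both PI4 libraries (-1.96 ± 0.68, unadjusted p = 0.0176, adjusted p = 0.339), and Gbp3 was the other member with an unadjusted p under 0.05. Each arm had 1 library a day, so the test sets the difference against the arm-by-day spread of all 16 transduced libraries. Without PI8 day 3 or PI8 day 9, Irgm1 was called (-0.76 ± 0.14 in both, adjusted p = 0.0226 and 0.0219), with 646 of 17368 and 660 of 16847 genes called. Depth and quality also differed: PI4 had 4023 and 7611 UMIs per cell at the median and 0.35% and 0.23% mitochondrial UMIs at days 3 and 9, against 57205 and 75762 UMIs and 3.33% and 2.74% in PIP. Gm42418, AY036118 and Lars2 together made up 1.17% and 3.47% of UMIs in PI4 and 0.32% and 0.68% in PIP, and the summed fibroblast markers were at 1263 and 2255 CPM against 533.6 and 630.2 CPM. Their part in the difference was not tested.

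PIB was set against PI8, and PI8 against SI8 of the Clec9a line, which has Spib in place of Pu.1. The factor the labels spell Baft3 is taken here as Batf3, whose transcript did not set PIB apart: it was at 5.0 and 2.32 CPM in PIB at days 3 and 9, at 6.11 CPM in PI8 at day 3 and at 0 in the library labelled PI8 day 9. The comparisons gave 0 members and 0% of 16090 genes called by edgeR in each comparison (0 and 1 members, the latter Igtp, at an unadjusted p under 0.05; DESeq2 called 0 in each). In both, PI8 is represented by day 3 and by the library labelled PI8 day 9. At day 3 PI8 and PIB had Iigp1 at 224.6 and 247.5 CPM, Irgm1 at 236.2 and 132.1 CPM and Gbp2 at 64.5 and 22.5 CPM. With PI8 day 3 left out, so that PI8 rests on the library labelled day 9 alone, 5 members were called in each comparison, where 7364 and 7328 of 17368 genes were called: Irgm1 (2.36 ± 0.21, adjusted p = 4.11e-05), Iigp1, Gbp6 and Irgm2 higher and Gbp7 lower in PIB, and Irgm1 (-3.43 ± 0.22, adjusted p = 1.02e-05), Iigp1, Gbp6, Irgm2 and Igtp lower in PI8 than in SI8. Without PI8 day 9 no member was called in either, with 40 and 11 of 16847 genes called.

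The splenic populations had 1 library each, so their levels have no replicate check. Gbp4 was higher in pDC and cDC2 than in any MEF or transduced library, while cDC1 lay within the transduced range. It was at 32.9 CPM (95% interval 31.4 to 34.5) in pDC, 29.0 CPM (26.9 to 31.3) in cDC2 and 8.18 CPM (6.71 to 9.87) in cDC1, and at 0.0821 to 13.8 CPM in the transduced libraries. The levels of pDC and cDC2 lay next to each other with intervals that just failed to overlap, and PIP at day 3 was the highest transduced library. Gbp6 was at 11.9 CPM (11 to 12.9) in pDC, 0.385 CPM (0.176 to 0.731) in cDC2 and 0 in cDC1. In cDC1, 0 of 814 cells had a Gbp6 UMI, which allows a share of cells with a UMI, not of cells expressing the gene, of up to 0.369%. Iigp1 was at 31.9 CPM (30.4 to 33.5) in pDC, 4.16 CPM (3.14 to 5.42) in cDC1 and 1.5 CPM (1.04 to 2.08) in cDC2, each below every transduced library outside SII and PI8 day 9. Gbp2 was at 11.8 CPM (10.4 to 13.3) in cDC2, 3.63 CPM (2.68 to 4.82) in cDC1 and 0.866 CPM (0.634 to 1.15) in pDC. Of the regulators, Irgm1 was at 56.2, 43.5 and 27.9 CPM in cDC2, pDC and cDC1, Igtp at 21.4, 13.4 and 10.1 CPM, and Irgm2 at 15.8, 4.89 and 6.06 CPM. In cDC2, 6 of the 10 members were at their highest splenic level. Gbp3 was level in cDC2 and pDC (8.01 and 8.09 CPM), Gbp5 was at 11.7, 8.25 and 5.12 CPM and Gbp7 at 13.1, 1.51 and 2.13 CPM in cDC2, cDC1 and pDC. Other GBPs of the chromosome 5 cluster were also measurable in the spleen, Gbp8 at 63.7 CPM in cDC2 and 36.6 CPM in pDC against 4.68 CPM or less in every MEF and transduced library (chosen after its values were seen).

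The number of members found per cell differed between kinds of library. It rises with how often each member is found, so it does not show whether members go together within a cell. Each cell was thinned to 20000 UMIs, which left out shallower cells and both SI8 libraries of the hCD2 line and PI8 day 9, so that depth was the same in all. A MEF then held 6.40 and 6.35 of the 10 members on average, a PI4 cell 4.68 and 4.59, an SI8 cell of the Clec9a line 4.38 and 3.89, and an SII cell 1.87, 1.60, 1.20 and 1.43. The share of cells with 5 or more members was 87.0% (84.4% to 89.3%) and 87.3% (85.5% to 89.0%) in MEF, 44.1% and 34.5% in SI8 of the Clec9a line and 0.46% to 2.80% in SII. Splenic cells held 2.33 members in pDC, 2.31 in cDC2 and 0.819 in cDC1. Left out by the depth limit were 3840 of 4169 pDC, 1781 of 1881 cDC2 and 615 of 814 cDC1. In PI4 at days 3 and 9 the limit left out 508 of 712 and 325 of 418 cells. At 2500 UMIs, with all cells kept, the order of some libraries differed. There pDC, cDC2 and cDC1 held 0.333, 0.389 and 0.168 members, and SII cells 0.492, 0.448, 0.324 and 0.338. PI4 cells held 1.81 and 1.97 members at that depth, close to MEF at 2.12 and 2.07.

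**Figure D5:**
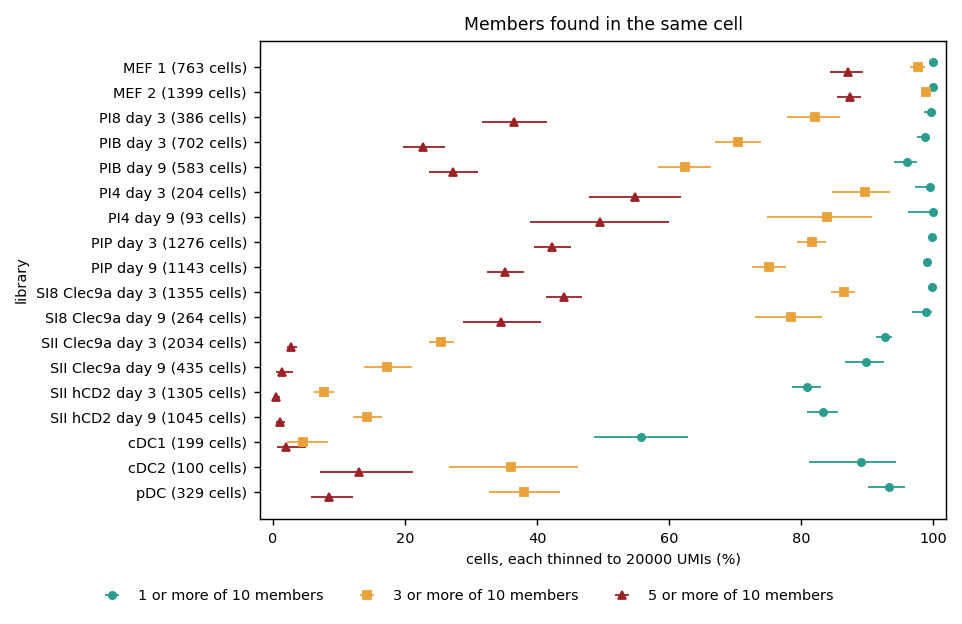
Share of cells (%), each thinned to 20000 UMIs, with 1, 3 or 5 or more of the 10 members; bars are 95% Clopper-Pearson intervals over cells. The triangles (5 or more) lie at 87.0% and 87.3% in MEF and at 2.80% or less in SII, where most cells still held 1 member.

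Irgm1 was found in most SII cells, unlike Iigp1 and Gbp2. It had a UMI in 81.6%, 77.0%, 74.2% and 71.8% of SII cells at 20000 UMIs, against 97.0% and 94.3% in SI8 of the Clec9a line. Iigp1 had a UMI in 33.3%, 19.5%, 9.5% and 14.0% of SII cells, against 92.3% and 75.0%, and Gbp2 in 5.95%, 6.67%, 2.68% and 5.65%, against 52.3% and 40.2%. At 2500 UMIs per cell, where all 8 libraries could be used, 8 of 10 members had a lower share in every SII library than in every SI8 library, the exceptions being Gbp3 and Igtp. Without thinning that held for 0 members; the SI8 libraries of the hCD2 line had 2765 and 2786 UMIs per cell at the median and the SII libraries 39646 to 54414. Gbp4 had a UMI in 44.1% of pDC, 33.0% of cDC2 and 6.53% of cDC1 at 20000 UMIs, and in 0.262% and 0.357% of MEF cells, shares at which free RNA and expression cannot be told apart. The median depths of these cells before thinning were 25168 UMIs in pDC, 23178 in cDC2, 22634 in cDC1 and 24486 and 27852 in MEF. Without thinning the Gbp4 shares were 29.2%, 22.9% and 6.39% in pDC, cDC2 and cDC1 and 0.244% and 0.289% in MEF.

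At 20000 UMIs, cells with 1 member more often held another in most libraries, for the pairs read here. Irgm2 was found more often in cells with an Igtp UMI than in cells without one in 15 of 15 libraries with 50 or more cells of each kind, and in 8 of them the 95% intervals did not overlap. In MEF the shares were 66.9% with and 53.2% without Igtp in the first library and 62.4% and 48.0% in the second. Gbp3 was found more often in cells with a Gbp7 UMI in 12 of 12 libraries, 10 of them without overlap. In PIB at day 9 these shares were 47.5% and 13.6%, and the Clec9a line with SI8 at day 9 gave 54.7% and 21.7%. Iigp1 went with Irgm1 in 12 of 12 libraries (4 without overlap) and with Gbp2 in 11 of 12 (6 without overlap), the exception being pDC. It went with Gbp3 in 12 of 12 (2 without overlap), and Gbp2 went with Irgm1 in 9 of 10 (3 without overlap). At 2500 UMIs the pairs stood apart less clearly: Irgm2 was more frequent with Igtp in 10 of 12 libraries (0 without overlap), Gbp3 with Gbp7 in 4 of 5 (1 without overlap) and Gbp2 with Irgm1 in 13 of 20 (1 without overlap). Iigp1 at that depth went with Irgm1 in 12 of 15 libraries, with Gbp2 in 13 and with Gbp3 in 13 (4, 4 and 1 without overlap). The cells of a library are not replicates, so these are descriptions of the libraries.

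Across the 21 libraries most pairs of members had a positive correlation. The 45 pairs had a median Pearson r of 0.65 on log2(CPM + 1), from -0.19 (Gbp4 with Gbp7) to 0.93 (Gbp6 with Iigp1). Gbp4 had no r above 0.48 with any other member, and the 36 pairs without it had a median of 0.72, the lowest being Irgm1 with Gbp5 (0.14), Irgm1 with Gbp7 (0.18) and Gbp5 with Iigp1 (0.38). The libraries share reporter lines, factors and controls, so these values describe the set and carry no test. By the naming rule, the genes most like the family mean among 11350 candidates were Gm4951 (r = 0.94), Rsad2 (0.93), Ifit1 (0.93), Xaf1 (0.92), Rnf213 (0.92), Oasl2 (0.92), Apod (0.92), C1qtnf2 (0.91), Ssc5d (0.91) and Rtp4 (0.91). Gene by gene, the closest non-members were Casp4 for Gbp2 (0.93), Slc24a3 for Gbp3 (0.87), Stard3 for Gbp4 (0.90), Serpina3g for Gbp5 (0.88), Sdc1 for Gbp6 (0.93), Igfbp4 for Gbp7 (0.91), Rsad2 for Igtp (0.92), Usp18 for Irgm1 (0.92), Mitd1 for Irgm2 (0.92) and Bgn for Iigp1 (0.92).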

How the data were processed

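UMI counts of 24455 genes in 25991 cells of 21 libraries were used as the authors deposited them; per the submitters' processing notes they were made with Cell Ranger 6.0.1 and Seurat (no version given) on mm10. All columns were matched to a library by name, leaving 0 without one. Cell filters (500 UMIs, 200 genes, 20% mitochondrial UMIs over 13 genes) removed 0 cells, which held 2501 to 99996 UMIs each. Doublets stayed in; Scrublet (scanpy 1.11.5, score above 0.2) marked 1583 cells (6.09%), left out in an alternative. Counts were summed per library and tested with edgeR 4.0.16 (quasi-likelihood, TMM, filterByExpr, R 4.3.3), with Benjamini-Hochberg adjustment over all genes tested and a threshold of 0.05. DESeq2 1.42.0 was an alternative. The code was tested on simulated data.

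MEF and transduced libraries were fitted together for the comparisons with MEF, the 16 transduced libraries with arm and day as terms for those between days and between single arms, and 8 libraries each for Ikzf2 and for Irf4 against Irf8. Alternatives were DESeq2, RLE size factors, no filter, deep cells only (10000 UMIs or more), no Scrublet cells, thinned sums, each library left out, blocks and single lines. Library totals without TMM scaling, all alternatives of the interactions and the thinning of the count of members per cell were chosen after seeing the data. Library totals and depths are given with the results. Shares of cells were computed on cells thinned to 2500 or 20000 UMIs, and a count of 0 was given the limit of 3 counts. Promoters came from RefSeq, and levels of UMIs are not divided by gene length. The protein sequences were not used here.

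The members and the gene lists were chosen with earlier results of these data known. The naming rule took all members, the 10 genes most like the family mean and the 1 most like each member (Pearson r on log2(CPM + 1) over 21 libraries, genes reaching 10 CPM in 1 library), and, per list and comparison, up to 4 called genes with the highest absolute log2 fold change. Replicate numbers in the labels do not pair libraries across the groups; libraries of the same line and day, or the same set and day, were paired only in alternatives.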

Additional observations from a re-analysis of the deposited data

Results flagged for a closer look

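Levels of the members were screened for a library far from the rest of its group of 4 to 10 libraries. Of 60 groups 11 held such a library, where chance gives about 1 in 20. The groups share libraries and the members move together, so the 11 are not independent.

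In SI8, the hCD2 line at day 9 was low for Gbp3 (7.31 CPM, the others 22.3 to 24.6), and the hCD2 line at day 3 was high for Irgm1 (275.0 CPM, the others 227.1 to 232.8). In SII, the Clec9a line at day 3 was high for Iigp1 (87.2 CPM, the others 17.5 to 26.1) and for Gbp7 (5.59 CPM, the others 2.59 to 3.05), and the hCD2 line at day 3 was low for Gbp6 (1.63 CPM, the others 5.69 to 6.06).

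Among the Irf8 arms with Pu.1, PI8 at day 3 was high for Gbp4 (12.0 CPM, the others 1.13 to 2.48). The library labelled PI8 day 9 was high there for Gbp7 (56.8 CPM, the others 15.3 to 20.1) and low for Iigp1 (21.5 CPM, the others 224.6 to 251.4), and it was also high for Gbp7 among all day 9 libraries (56.8 CPM, the others 2.84 to 21.1). PI4 was high for Irgm1 among the day 3 libraries (481.0 CPM, the others 110.3 to 275.0) and for Gbp3 among the day 9 libraries (60.003 CPM, the others 2.82 to 24.6).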

How the results depend on the processing

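Of the values that answer a comparison, 211 recomputed under an alternative stayed within 1.5 times the reported one and 15 moved; of the values of single genes 501 kept their side of the threshold, 31 lost a call and 1 gained one. None of these changed direction. Without the library labelled PI8 day 9 or any other 1 library, the members called ranged from 0 to 3 for day 9 against MEF and for day 3 against MEF, 0 to 5 for PIB against PI8 and for PI8 against SI8, 0 to 1 for PIP against PI4, 10 to 10 for Ikzf2 and 0 to 3 for its interaction with day. They were 0 to 0 for day 9 against day 3, for Irf4 against Irf8, for the reporter lines and for the interaction with line. With day 9 and MEF libraries alone, 0 members were called in place of 3. DESeq2 called 1 in place of 0 for Irf4 against Irf8 and for the interaction with day, and the hCD2 line alone gave 6 in place of 10 for Ikzf2.

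With a replicate block of pairs of the same line and day, 10 members were called for Ikzf2. With a block of pairs of the same set and day, 0 were called between the reporter lines, and 0 were called between the days with no replicate block. The labels do not say that these pairs share a culture.

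The share of cells with a UMI was lower in every SII than in every SI8 library for 8 members at 2500 UMIs, for 10 at 20000 UMIs (4 SII and 2 SI8 libraries) and for 0 without thinning. The count of SII libraries below every SI8 library in members per cell was 4 at 2500 and at 20000 UMIs and 0 without thinning. Depth limits the SI8 libraries of the hCD2 line most.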
